A study of Mus musculus with 2 samples.

Results

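A set of 10 genes that encode enzymes acting on lysine 9 of histone H3 (H3K9) was examined in CT26 cells, a mouse colon cancer line, with and without knockdown of Setdb1. They were taken by symbol from the deposited gene table, where each of the 10 symbols stood on 1 of the 54680 loci. Among them, 5 encode methyltransferases, or writers (Setdb2, Suv39h1, Suv39h2, Ehmt1 and Ehmt2), and 5 encode demethylases, or erasers (Kdm3a, Kdm3b, Kdm4a, Kdm4b and Kdm4c). In the knockdown cells (shSetdb1) a lentivirus delivered a short hairpin RNA that targets Setdb1, and the control cells (shCtrl), labelled wild type, received lentivirus with the empty knockdown vector. Both were CT26 cells grown for 6 days in RPMI medium with serum, and the labels call the knockdown cells differentiated. Both groups had 1 RNA-sequencing library, so the values describe these libraries, have no replicate check and carry no p-value. The hairpin sequence, and whether the cells were a clone or a pool, are not given in the sources used here.

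Methylation of H3K9 is a mark of silent chromatin. As background, SETDB1 and the SUV39H enzymes lay down the trimethylated form that HP1 proteins bind in heterochromatin, while G9a (encoded by Ehmt2) and GLP (encoded by Ehmt1) form a complex that places mono- and dimethylation in euchromatin. The KDM3 enzymes remove mono- and dimethylation and the KDM4 enzymes remove di- and trimethylation. These erasers are JmjC-domain oxygenases, which need iron, 2-oxoglutarate and molecular oxygen, and Kdm3a, Kdm4b and Kdm4c are known as genes that hypoxia-inducible factors can switch on. The comparison asked whether RNA of the other writers was higher where Setdb1 RNA was reduced, and whether RNA of the oxygen-regulated erasers differed.

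Levels are given in FPKM, the fragments counted on a gene scaled by the length of its model and by depth, so that levels of different genes can be set side by side within a library. Whole reads could be recovered from 100% of the values above 0. The totals were 18421604 reads in shCtrl and 19045830 in shSetdb1. Differences are given as shSetdb1-over-shCtrl log2 ratios of (FPKM + 1), which understate those of low genes, and as read ratios per library total with a 95% exact (Clopper-Pearson) interval. These intervals cover counting error only and hold no spread between replicates. They may be too narrow even for counting error, since reads without molecular identifiers are not independent molecules. Setdb1 itself was at 10.4 FPKM in shCtrl and 2.47 FPKM in shSetdb1, and its model overlaps that of Cers2 by 75 bases. Markers of the labelled epithelial origin were mixed. Epcam and Cdh1 had 0 reads in both libraries and Krt8 had 7 and 8 reads, while Krt18 was at 37.7 FPKM in shCtrl and 90.0 FPKM in shSetdb1, Krt20 at 5.07 and 35.6 FPKM, and Krt19 had 1 and 53 reads. Vil1 had 1 and 7 reads and Cdx2 5 and 18 reads. The 8 epithelial markers summed to 43.2 FPKM in shCtrl and 128 FPKM in shSetdb1. The 3 mesenchymal markers summed to 1165 FPKM in shCtrl and 1393 FPKM in shSetdb1. Vim was at 752 and 835 FPKM, Fn1 at 381 and 534 FPKM, and Col1a1 at 32.1 and 24.0 FPKM. The endothelial markers Pecam1 and Cdh5 had 0 reads in both libraries. Among 4 immune markers, Ptprc had 0 and 4 reads, Cd3e none, and Lyz2 23 and 21 reads, whereas Cd68 was at 10.4 FPKM in shCtrl and 100.2 FPKM in shSetdb1. The sum of the 4, 11.3 and 101 FPKM, was thus nearly all Cd68. The part of this in the results below was not tested. In these bulk libraries, fewer cells expressing a gene and less RNA per cell cannot be told apart.

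The log2 ratios farthest from 0 among the 10 genes were those of erasers, with Kdm4b and Kdm3a higher and Kdm4a lower in shSetdb1. Those of the writers were nearer to 0, although the read ratio was 1.58 for Suv39h2 and 1.39 for Ehmt2. Of the 10 genes, 9 reached 1 FPKM, each of them in both libraries, and Suv39h2 stayed under it. Of these 9, 6 were higher in shSetdb1 and 3 were lower, where 49.6% of all genes were higher, with a median log2 ratio of 0.20 against a median of -0.00039 over all 10671 genes that reached 1 FPKM in at least 1 library. Kdm4b was the 1 gene of the 9 at a 2-fold difference or more, a threshold that 11.7% of all genes and 10.3% of protein-coding genes passed. At 1.5-fold the count was 3 of 9 (Kdm4b, Kdm3a and Kdm4a), against 31.2% of all genes. Both counts are near the share among all genes. The counting interval of the read ratio excluded 1 for 8 of the 9, Setdb2 being the exception, against 75.8% of all genes.

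**Figure D1:**
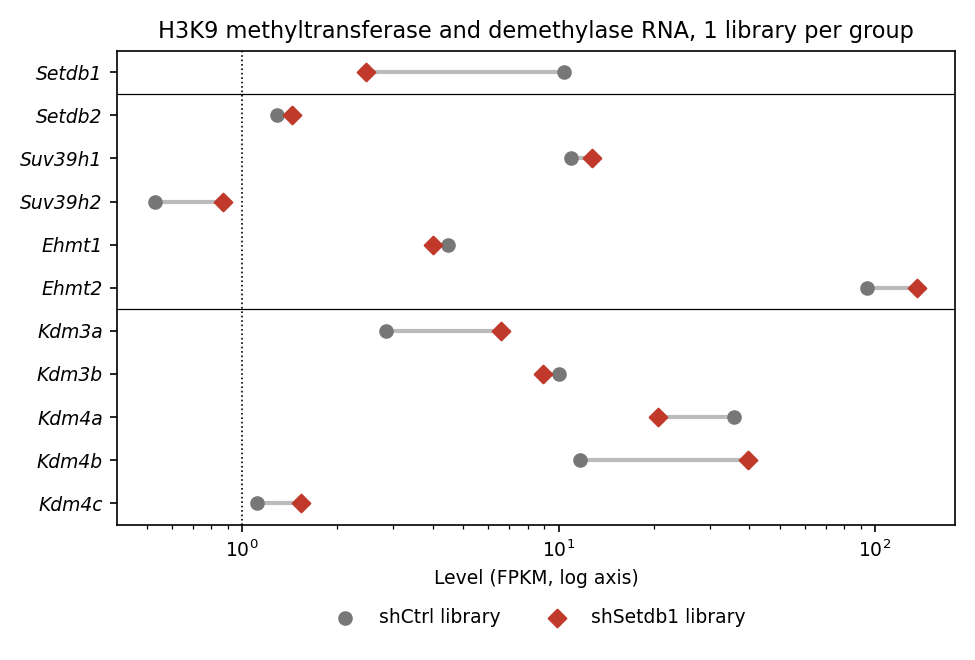
Level in FPKM (log axis) of Setdb1 and the 10 H3K9 enzyme genes in the shCtrl library (grey circles) and the shSetdb1 library (red diamonds), with 1 library per group and a dotted line at 1 FPKM. Ehmt2 is highest in both libraries, at 94.4 and 135 FPKM, and the markers of Kdm4a and Kdm4b change order between the libraries.

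Among the writers of trimethylation, Suv39h1 and Suv39h2 encode paired chromodomain enzymes of pericentric heterochromatin. Suv39h1 (ENSMUSG00000039231, minus strand of chromosome X, 8061171 to 8074760 in GRCm38) was at 11.0 FPKM (1081 reads) in shCtrl and 12.8 FPKM (1260 reads) in shSetdb1. The knockdown library was thus slightly higher, at a log2 ratio of 0.20 and read ratio of 1.13 (1.04 to 1.22). That is within the middle 50% of all genes tested, whose read ratios ran from 0.710 to 1.33. Suv39h2 (ENSMUSG00000026646, minus strand of chromosome 2, 3455815 to 3475031) was low in both, at 0.533 FPKM (44 reads) and 0.872 FPKM (72 reads). Its log2 ratio was 0.29, or 0.62 with a pseudocount of 0.1, and its read ratio was 1.58, with an interval from 1.07 to 2.36 that reflects the few reads. Dclre1c, on the opposite strand, overlaps Suv39h2 over 8316 bases and had 70 and 78 reads, and the strand setting of the counting is not given in the sources used here, so reads of the overlap cannot be assigned with certainty.

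In shCtrl Suv39h1 and Setdb1 stood at nearly equal levels, with 1.05 times as much Suv39h1. In shSetdb1 the level of Suv39h1 was 5.17 times that of Setdb1. That change of 4.93-fold in the ratio of the genes does not depend on library scaling and has a counting interval of 4.24 to 5.73. It came mostly from Setdb1, as the sum of Suv39h1 and Suv39h2 was 11.5 FPKM in shCtrl and 13.6 FPKM in shSetdb1, a difference of 2.15 FPKM. The sum of Setdb1, Suv39h1 and Suv39h2 was 21.9 FPKM in shCtrl and 16.1 FPKM in shSetdb1. In these libraries, then, the higher Suv39h RNA was smaller in FPKM than the reduction of Setdb1 RNA. Setdb2, a relative of Setdb1 whose entry in the deposited table lists methyl-CpG binding, pre-SET and SET domains, was at 1.29 FPKM (98 reads) and 1.44 FPKM (109 reads). Its log2 ratio was 0.09, its read ratio of 1.08 had an interval of 0.811 to 1.43, and a difference was not detectable at this depth. Setdb2 (ENSMUSG00000071350) is annotated at 59402009 to 59440884 on chromosome 14, minus strand.

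The writers of mono- and dimethylation differed from each other both in level and in direction. Ehmt2 (ENSMUSG00000013787, plus strand of chromosome 17, 34898469 to 34914052), encoding G9a, had by far the most RNA of the 10 genes. It was at 94.4 FPKM (9703 reads) in shCtrl, above 94.3% of all genes tested, and at 135 FPKM (13917 reads) in shSetdb1. Ehmt2 had a log2 ratio of 0.52 with a read ratio of 1.39 (1.35 to 1.42), just above the upper quartile of all genes. The transcript of Ehmt2 has the highest GC content of the 10 genes, 60.8%, and after a correction of all ratios for GC content and length its log2 ratio was 0.27. Ehmt1 (ENSMUSG00000036893, minus strand of chromosome 2, 24789928 to 24919614), encoding the partner GLP, was at 4.47 FPKM (680 reads) and 4.03 FPKM (612 reads). Its log2 ratio was -0.12 and its read ratio 0.871 (0.779 to 0.972). Per length, Ehmt2 RNA was 21.1 times the level of Ehmt1 RNA in shCtrl and 33.6 times in shSetdb1, a 1.59-fold change with a counting interval of 1.42 to 1.79. That change is not corrected for GC content and length, a correction that lowered the log2 ratio of Ehmt2 and left Ehmt1 at -0.12.

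Taking the 5 writers as a group, 4 reached 1 FPKM, 3 of them higher in shSetdb1, 1 lower, and none at 2-fold. Among all genes 49.6% were higher and 11.7% were at 2-fold or more in either direction. Their median log2 ratio was 0.15, or 0.36 over the 2 members above 5 FPKM. Their summed level was 112 FPKM in shCtrl and 154 FPKM in shSetdb1, a ratio of 1.38. Nearly all of this difference was Ehmt2, which made up 84.5% and 87.6% of the sums. The sums are not corrected for GC content and length. Without Ehmt2 the sums were 17.2 and 19.1 FPKM, a ratio of 1.11. With Setdb1 added to the 5, the sums were 122 and 157 FPKM, and the share of Setdb1 was 8.55% in shCtrl and 1.57% in shSetdb1.

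**Figure D2:**
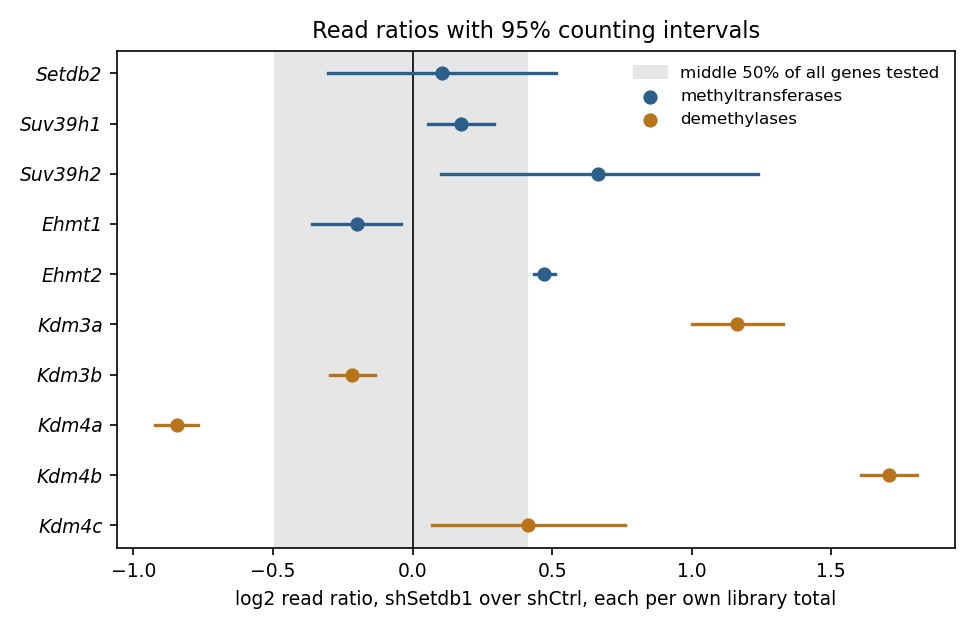
Log2 read ratio of each gene, knockdown over control and each per its own library total, with lines for the 95% counting intervals, writers in blue and erasers in orange, over a grey band for the middle 50% of all genes tested. Kdm4b (read ratio 3.26) and Kdm3a (2.24) lie to the right of the band and Kdm4a (0.556) to its left, while Suv39h1, Ehmt1, Setdb2 and Kdm3b lie within it.

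The log2 ratios of the erasers ran from -0.77 to 1.67, and those of the writers from -0.12 to 0.52. Whether either range is unusual for so few genes was not tested. Kdm4b (ENSMUSG00000024201, plus strand of chromosome 17, 56326062 to 56402870), which encodes a demethylase of trimethylated H3K9, was at 11.7 FPKM (1075 reads) in shCtrl and 39.6 FPKM (3627 reads) in shSetdb1. This was the ratio farthest from 1 among the 10 genes, the log2 ratio being 1.67 and the read ratio 3.26 (3.05 to 3.50). Kdm4b ranked 201 from the top among the 10671 genes by log2 ratio. Its level moved from above 61.4% of the genes tested to above 84.5%. The 3 protein-coding genes whose levels in the 2 libraries lay closest to those of Kdm4b, by Euclidean distance of log2(FPKM + 1), were Tes (distance 0.0652, log2 ratio 1.75), Pla2g15 (0.146, 1.56) and Zswim4 (0.172, 1.55).

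Its paralog Kdm4a (ENSMUSG00000033326, minus strand of chromosome 4, 118136957 to 118180043) went the other way. Kdm4a was at 35.9 FPKM (3885 reads) in shCtrl and 20.6 FPKM (2235 reads) in shSetdb1. Kdm4a had a log2 ratio of -0.77 with a read ratio of 0.556 (0.528 to 0.586), and the gene ranked 912 from the bottom. The third family member, Kdm4c (ENSMUSG00000028397, plus strand of chromosome 4, 74242497 to 74405860), was low, at 1.12 FPKM (122 reads) and 1.54 FPKM (168 reads). Its log2 ratio was 0.26, or 0.43 with a pseudocount of 0.1 and 0.42 after correction for GC content and length, and its read ratio of 1.33 had an interval of 1.05 to 1.70.

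Within the KDM4 family the order of the levels was thus different in the 2 libraries. In shCtrl Kdm4a RNA stood at 3.06 times the level of Kdm4b, and in shSetdb1 Kdm4b stood at 1.92 times the level of Kdm4a. The ratio of Kdm4b to Kdm4a changed by 5.86-fold, with a counting interval of 5.38 to 6.40, and this value is free of any scaling between the libraries. It is not corrected for GC content and length. With that correction the log2 ratio was 1.43 for Kdm4b and -0.87 for Kdm4a. Kdm4a made up 73.6% of the summed KDM4 level in shCtrl and 33.4% in shSetdb1, while Kdm4b went from 24.1% to 64.1%. The sum itself differed less than Kdm4a or Kdm4b, at 48.7 FPKM and 61.7 FPKM, a ratio of 1.27. According to the domain entries of the deposited table, Kdm4a, Kdm4b and Kdm4c share the jmjN, JmjC, PHD-finger and tudor domains, so the genes that changed places have the same listed domain set.

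**Figure D3:**
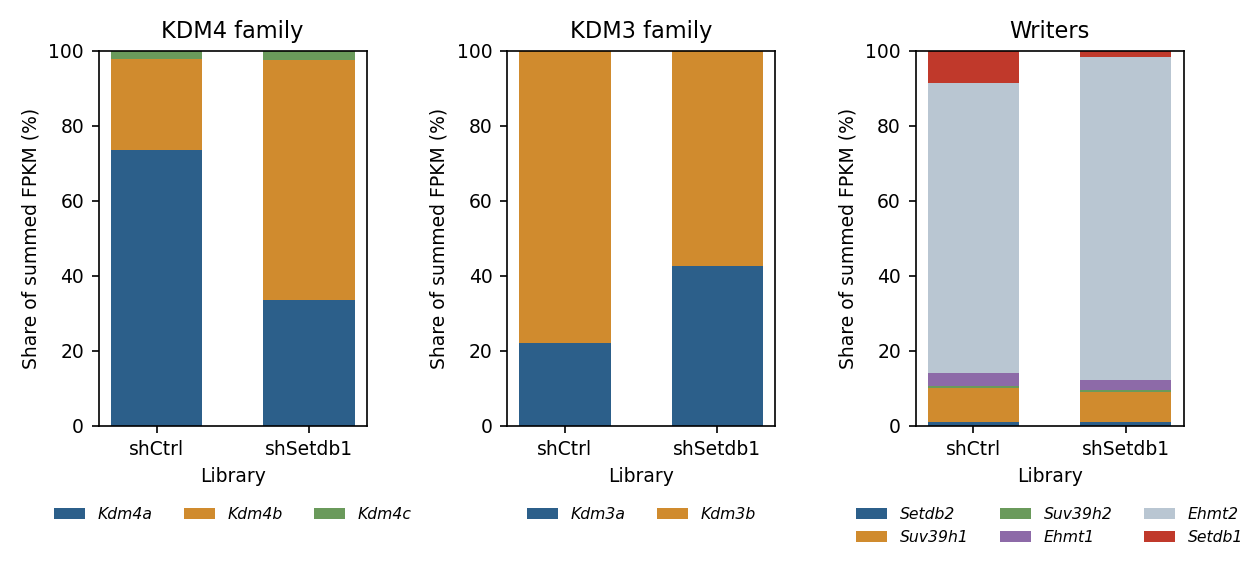
Share of the summed FPKM (%) that each gene held in the shCtrl and shSetdb1 libraries, for the KDM4 genes, the KDM3 genes and the 5 writers with Setdb1. Kdm4b holds 24.1% of the KDM4 sum in shCtrl and 64.1% in shSetdb1, Kdm3a holds 22.1% and 42.5% of the KDM3 sum, and Ehmt2 holds most of the writer sum in both.

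The KDM3 genes encode erasers of mono- and dimethylated H3K9. Kdm3a (ENSMUSG00000053470, minus strand of chromosome 6, 71588972 to 71632990) was at 2.85 FPKM (439 reads) in shCtrl and 6.60 FPKM (1017 reads) in shSetdb1. The read ratio was 2.24 (2.0 to 2.51), and the log2 ratio of 0.98 lay just under the 2-fold threshold, ranking 753 from the top. With a pseudocount of 0.1, which weighs less on a low gene, the log2 ratio was 1.18, and after correction for GC content and length it was 1.14. Under either setting 2 of the 9 genes passed 2-fold, against 18.8% of all genes with the pseudocount of 0.1 and 10.3% after the correction. Kdm3b (ENSMUSG00000038773, plus strand of chromosome 18, 34777047 to 34838660) was at 10.0 FPKM (2651 reads) and 8.94 FPKM (2359 reads). Its read ratio was 0.861 (0.814 to 0.910) and its log2 ratio -0.15, or -0.09 after correction for GC content and length. Kdm3b had 3.52 times the level of Kdm3a in shCtrl and 1.35 times in shSetdb1. The ratio of Kdm3a to Kdm3b changed by 2.60-fold, with a counting interval of 2.29 to 2.96, and the summed level was 12.9 and 15.5 FPKM.

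For the 5 erasers together, all 5 reached 1 FPKM, 3 were higher in shSetdb1, 2 were lower, and the median log2 ratio was 0.26. This count is near the share among all genes, of which 49.6% were higher. Their summed level was 61.6 FPKM in shCtrl and 77.3 FPKM in shSetdb1, a ratio of 1.25. Kdm4b was 19.0% of that sum in shCtrl and 51.2% in shSetdb1. The 3 members known as targets of hypoxia-inducible factors, Kdm3a, Kdm4b and Kdm4c, were the 3 that were higher. This grouping is background knowledge and was made with the values already known, so the match was not a test. Kdm4c differed least of the 3, with a read ratio of 1.33, which is also the upper quartile of all genes.

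RefSeq promoter windows (GRCm38.p6, from 250 bases before to 50 after the start) that hold the 5′ end of the deposited gene model were found for 8 of the 10 genes, all but Kdm3b and Kdm4b. They were searched on both strands for ACGTG and GCGTG, the core letters of the element bound by hypoxia-inducible factors. The palindrome CACGTG, also the core of the E-box bound by MYC and USF proteins, contains ACGTG on each strand. These letters stood in 4 of the 8 windows, near the share of 43.8% among all 32851 windows of the same length. They stood in 11 of 12 windows found for the list of oxygen-regulated genes described below. Those windows include Car9, Egln3 and Adm, so they are not the windows of the 12 genes counted there. Both cores contain CG, and the share among all windows is not matched for CG content. It is therefore no measure of enrichment for either list. Windows are shown for the eraser Kdm3a, which was higher in shSetdb1 (chr6:71632868-71633167, minus strand), the eraser Kdm4a, which was lower (chr4:118179994-118180293, minus strand), and the writer with most RNA, Ehmt2 (chr17:34898224-34898523, plus strand). Each is written 5′ to 3′ on the strand of the gene with matches in capitals.
Kdm3a: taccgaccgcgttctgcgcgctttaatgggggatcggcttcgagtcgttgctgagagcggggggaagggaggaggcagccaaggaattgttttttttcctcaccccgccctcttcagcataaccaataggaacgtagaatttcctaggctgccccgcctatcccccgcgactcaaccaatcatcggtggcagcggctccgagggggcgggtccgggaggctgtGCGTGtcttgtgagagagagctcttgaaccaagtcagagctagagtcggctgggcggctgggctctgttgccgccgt
Kdm4a: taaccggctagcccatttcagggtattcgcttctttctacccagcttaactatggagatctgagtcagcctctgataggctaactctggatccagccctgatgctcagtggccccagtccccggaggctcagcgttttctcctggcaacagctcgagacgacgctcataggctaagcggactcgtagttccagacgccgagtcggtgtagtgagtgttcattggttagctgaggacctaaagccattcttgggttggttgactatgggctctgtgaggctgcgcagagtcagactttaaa
Ehmt2: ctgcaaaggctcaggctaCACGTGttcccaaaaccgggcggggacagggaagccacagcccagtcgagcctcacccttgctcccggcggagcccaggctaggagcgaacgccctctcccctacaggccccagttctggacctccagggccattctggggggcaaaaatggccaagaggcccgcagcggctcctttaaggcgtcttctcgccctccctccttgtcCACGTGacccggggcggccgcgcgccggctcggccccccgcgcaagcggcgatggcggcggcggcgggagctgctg
The Kdm3a window held 1 match, GCGTG at position 224 counted from its 5′ end. The Kdm4a window held none, which says only that these letters are not in this window. The Ehmt2 window held CACGTG at 2 places. Suv39h2 (1 match, log2 ratio 0.29) and Ehmt1 (2 matches, -0.12) also held the letters. Setdb2 (0.09), Suv39h1 (0.20) and Kdm4c (0.26) did not. The Kdm4c window has 0 CG dinucleotides and so could not hold them. Higher and lower genes thus stood both with and without the letters. A match describes the sequence and is not evidence of binding.

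Genes known to respond to oxygen were counted beside the erasers, from a list chosen with earlier results of these data known. Of 16 such genes, 12 reached 1 FPKM in both libraries. All 12 were higher in shSetdb1, 9 of them at least 2-fold, and their median log2 ratio was 1.86. Among all genes at 1 FPKM in at least 1 library, a wider filter, 49.6% were higher and 6.81% at least 2-fold higher. The highest of the 12 was Bnip3, a mitophagy receptor, at 5.87 FPKM (249 reads) in shCtrl and 74.0 FPKM (3141 reads) in shSetdb1 (log2 ratio 3.45), and the lowest was Vegfa, the angiogenic growth factor, at 47.8 and 53.3 FPKM (0.15). Car9 and Ankrd37 passed 1 FPKM through the knockdown library alone and so had to differ. They are left out of these counts, and had 30 and 1626 reads and 12 and 863 reads. Egln3 and Adm stayed under 1 FPKM. The log2 ratios of Kdm4b (1.67) and Kdm3a (0.98) were under the median of the 12. The part of oxygen, or of its sensing, in the levels of the erasers was not tested.

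Other JmjC oxygenases lay on both sides of 0. Of 12 genes, 10 reached 1 FPKM in both libraries, 6 of them higher in shSetdb1 and 4 lower, with a median log2 ratio of 0.18. Among all genes at 1 FPKM in at least 1 library, 49.6% were higher. Jmjd6 was the 1 gene of the 10 at 2-fold or more, near the 11.7% of all genes that passed this threshold. This gene, which encodes a lysyl hydroxylase, was at 16.0 FPKM in shCtrl and 40.3 FPKM in shSetdb1 (log2 ratio 1.28). The lowest was Kdm8, at 2.75 and 1.65 FPKM (-0.50). Kdm5a, an H3K4 demethylase, passed 1 FPKM through the control library alone and so had to be lower, at 1.66 and 0.833 FPKM. Kdm4b and Kdm3a therefore lay on the same side as Jmjd6, above the other 9 of these 10 genes. The factor-inhibiting hydroxylase gene Hif1an was at 12.2 and 11.4 FPKM (log2 ratio -0.09).

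The remaining H3K9 enzymes were lower or too low to compare. Among 4 other writers, Prdm2 was at 8.09 and 6.65 FPKM (log2 ratio -0.25), Mecom stayed under 1 FPKM, and Prdm16 had 0 reads in both libraries, which allows up to 3 reads. Setdb1, the fourth, had the lowest log2 ratio, -1.72. Of 5 other erasers, Phf8 was at 3.83 and 2.24 FPKM (-0.58) and Phf2 at 20.0 and 18.2 FPKM (-0.13). Jmjd1c, the third KDM3 relative, was under 1 FPKM with 272 and 198 reads, a read ratio of 0.704 (0.583 to 0.849). Kdm4d, a further KDM4 relative, had 0 and 1 read, and Kdm7a had 50 reads in each library.

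Partners and readers of the mark were mixed. Of 10 genes, 7 reached 1 FPKM, each in both libraries, 2 higher and 4 lower, with Mphosph8 at 75 reads in each library. Among all genes 49.6% were higher. None of the 7 was at 2-fold, against 11.7% of all genes. Cdyl2, which encodes a chromodomain protein, was highest, at 8.64 and 14.1 FPKM (log2 ratio 0.64). Wiz, a zinc finger partner of the G9a and GLP complex, was lowest, at 15.4 and 11.0 FPKM (-0.45), while Ehmt2 was higher. The median of the 7 was -0.0588, and after correction for GC content and length 5 of the 7 were higher in shSetdb1, so no direction is given for this list.

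**Figure D4:**
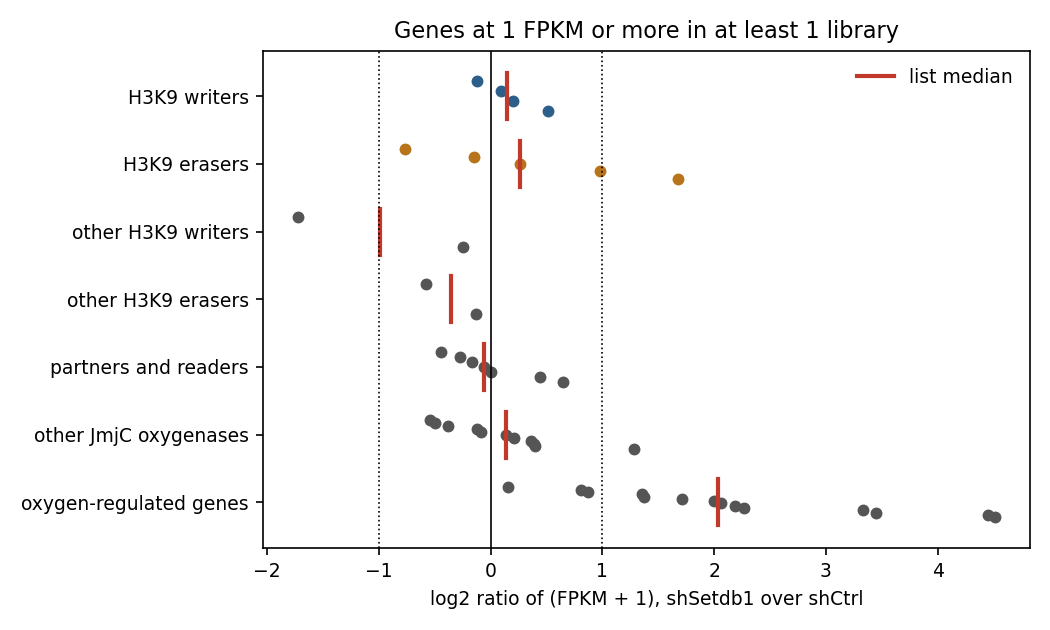
Log2 ratio of (FPKM + 1), shSetdb1 over shCtrl, for each gene at 1 FPKM or more in either library, by list, with red bars for list medians and dotted lines at 2-fold. The 5 erasers run from -0.77 (Kdm4a) to 1.67 (Kdm4b) and the 4 writers from -0.12 (Ehmt1) to 0.52 (Ehmt2), while the bar of the oxygen-regulated genes, with Car9 and Ankrd37 included, is at 2.03.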

How the data were processed

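RNA was measured in 1 library per group, grouped by the genotype in the labels, with columns matched by library name. The authors deposited FPKM values for 54680 loci with gene-model lengths. The submitters' processing notes name CASAVA, HISAT2 and featureCounts 1.5.0-p3 and the build GRCm38; the strand setting and annotation release are not given in the sources used here. Positions of the 10 genes were the same in GENCODE M21. Reads were recovered as FPKM times length over a common step (tolerance 0.0001), and the step corresponds to 1 common depth of 18731117 reads, so the main ratios carry the 1.03 ratio of the totals.

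Log2 ratios of (FPKM + 1) were computed with a pseudocount of 1. Genes reaching 1 FPKM in either library (10671) formed the background, and called means a 2-fold difference. Ratios between genes have exact conditional intervals and are not corrected for GC content and length. GC content came from the longest M21 transcript (98.5% of genes) and the correction used lowess with a span of 0.3. The members, lists and the rule for named genes (all 10, the extremes of each list, with Car9 and Kdm5a the extremes before the oxygen and JmjC lists were held, after their values were seen, to 1 FPKM in both libraries, and the 3 nearest genes) were chosen with earlier results of these data known; Hif1an, Kdm8, Bnip3, Ankrd37, Egln3, Adm, Jmjd1c, Kdm4d, Kdm7a, Mecom, Prdm16, Mphosph8, Cers2 and Dclre1c are named outside that rule. The calculations were tested on simulated Poisson counts. These hold no duplicate reads and no spread between replicates, so only the arithmetic was checked. Alternatives were another pseudocount, 3 scalings, other filters, means, a 1.5-fold threshold and, added after seeing the data, the GC and length correction. The work used scipy 1.17.1 and numpy 2.4.6 for intervals, statsmodels 0.14.6 for lowess, pandas 2.3.3 for tables and matplotlib 3.10.9 for plots, under Python 3.11.15. Protein sequences were not used here. A planned marker gene is not reported here.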

Additional observations from a re-analysis of the deposited data

How the results depend on the processing

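The correction for GC content and length, and all alternatives for the counts of the other gene lists, were chosen after seeing the data. The others were planned with earlier results of these data known. Of 49 alternative values of the ratios of the 10 genes, 43 stayed within counting error, 6 moved and 0 changed sign. Ehmt2 was at 0.46 under upper-quartile scaling, 0.47 with own read totals and 0.27 after correction for GC content and length. Kdm3a was at 1.18 with a pseudocount of 0.1, and Kdm4a at -0.87 and Kdm4b at 1.43 after the GC and length correction. The count past the threshold was 2 with a pseudocount of 0.1 (18.8% of all genes), 2 after that correction (10.3%) and 3 at 1.5-fold (31.2%). The writer sum, knockdown over control, was 1.33 by upper quartile and 1.34 by own totals, and with Setdb1 1.24 under both. Except where the setting itself makes the change, the cause was not tested. The writer median ran from 0.11 to 0.36 and the eraser median from 0.23 to 0.43. No paired analysis was possible because there was a single library on each side, so none could be left out either. Depth limits Suv39h2, Setdb2 and Kdm4c, which had 44 to 168 reads.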
